A study of Mus musculus with 6 samples.

Results

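The genes carried by mitochondrial DNA were described in foetal mouse ovaries with and without a germ cell deletion of *Srsf1*, which codes for a splicing factor. They were taken as every row that the deposited table places on chromosome MT, which gave 37 of its 54532 genes: 13 protein-coding genes, 2 ribosomal RNA (rRNA) genes and 22 transfer RNA (tRNA) genes. The table holds 6 RNA-seq libraries of whole ovaries at 16.5 days post-coitus (dpc), 3 from control (Ctrl) and 3 from conditional knockout (cKO) mice, all labelled strain C57BL/6. The labels give the Ctrl mice as wild type, without saying whether they carried floxed alleles. The cKO mice were *Stra8-GFPCre Srsf1* Fl/Fl, in which Cre driven by a promoter of germ cells entering meiosis removes exons of *Srsf1*, so that the other cells of the ovary keep the gene. Nothing in the sources ties a library to 1 animal or to a pool, and p-values measure the spread between these libraries.

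Mitochondrial DNA is a small circle that codes for core subunits of the respiratory chain and of ATP synthase, and for the rRNAs and tRNAs with which mitochondria translate them. Both of its strands are transcribed as long precursors, and the tRNAs, which lie between most of the other genes, are cut out to release the mRNAs and rRNAs. The mRNAs have no introns and most receive short poly(A) tails, and all other mitochondrial proteins are encoded in the nucleus and imported. Oocytes carry more mitochondria than most cells, and mitochondrial DNA is handed down through the egg.

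The 37 genes lie close together. All matched a GENCODE M21 transcript (GRCm38) of the same length, 9 of the 36 neighbouring pairs overlapped, 28 genes were on the plus strand and 9 on the minus strand. The minus strand held *mt-Nd6* and 8 tRNA genes, and the plus strand the other 12 protein-coding genes, both rRNA genes and 14 tRNA genes. The sequences below, taken from those transcripts, show how the genes meet. *mt-Atp8* and *mt-Atp6*, for 2 subunits of ATP synthase, share 43 bases (MT, 7927 to 7969, plus strand), in which the capitals mark the start codon of *mt-Atp6*. The last 20 bases of *mt-Nd4l* (MT, 10154 to 10173, plus strand) hold, in capitals, 7 bases that are also the first of *mt-Nd4*. Reads over such bases cannot be given to 1 gene by position.
mt-Atp6: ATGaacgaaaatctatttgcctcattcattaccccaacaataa
mt-Nd4l: tcaacctactacaATGCTAA

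The annotated 3' ends of the protein-coding genes show the part that the poly(A) tail plays. Where the mRNAs themselves end was not measured. The tail also bears on the libraries, since these were made from RNA caught by its poly(A) tail. *mt-Co1* (MT, 6853 to 6872) and *mt-Nd5* (13546 to 13565) end in a full stop codon, in capitals. *mt-Cytb* (15269 to 15288), *mt-Co3* (9371 to 9390) and *mt-Nd4* (11525 to 11544) end in a lone T, in capitals, and the tail supplies the rest of the stop codon. All 5 are on the plus strand.
mt-Co1: cctatgtaaaagtaaaaTAA
mt-Nd5: actcaattaatctcgagTAA
mt-Cytb: aatactaaaattatatccaT
mt-Co3: catttattgatgaggatctT
mt-Nd4: aattacaggcctgacaataT

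The tRNAs that the results turn on are shown with the anticodon in capitals. Those for proline (*mt-Tp*, MT, 15356 to 15422, minus strand), cysteine (*mt-Tc*, 5192 to 5257, minus) and asparagine (*mt-Tn*, 5089 to 5159, minus) had the highest levels of the 22. Those for glycine (*mt-Tg*, 9391 to 9458, plus) and arginine (*mt-Tr*, 9808 to 9875, plus) lie on either side of *mt-Nd3* and had reads in 4 of the 6 libraries.
mt-Tp: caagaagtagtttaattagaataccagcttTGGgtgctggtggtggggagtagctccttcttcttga
mt-Tc: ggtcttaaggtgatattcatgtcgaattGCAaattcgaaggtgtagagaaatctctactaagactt
mt-Tn: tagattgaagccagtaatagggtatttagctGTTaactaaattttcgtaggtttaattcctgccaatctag
mt-Tg: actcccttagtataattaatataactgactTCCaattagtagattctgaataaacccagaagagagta
mt-Tr: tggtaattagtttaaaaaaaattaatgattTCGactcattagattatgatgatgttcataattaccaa

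The libraries held 14212164 to 16784241 reads on genes, recovered from FPKM (fragments per kilobase of gene length, scaled to library size) and gene length, and all values came out whole. *Srsf1* measured 80.2, 70.1 and 63.1 FPKM in Ctrl 1, 2 and 3, against 32.4, 37.01 and 36.4 in cKO 1, 2 and 3, and the groups did not overlap. Germ cell markers (*Ddx4*, *Dazl*, *Sycp3* and *Sycp1*, 4 of 4 at a mean of 1 FPKM or more) summed to 87.9 to 355 FPKM in Ctrl and 143 to 503 in cKO libraries, and 4 pregranulosa markers to 234 to 326 and 265 to 346. The extraction protocol in the labels names retinas, but the 6 retina markers summed to at most 2.26 FPKM, with *Crx* at 0. Red blood cell markers (7 of 7) summed to 4795 to 22484 FPKM in Ctrl and 1700 to 10311 in cKO. These sums overlapped, but *Hbb-y* alone was at 6.15 to 10.49 FPKM in Ctrl and 23.9 to 99.6 in cKO. Of 5 muscle and heart markers 1 reached a mean of 1 FPKM, and their sum was 1.94 to 2.71 in Ctrl and 5.30 to 7.27 in cKO. That gap was *Myl7*, at 1.15 to 1.84 and 4.34 to 6.92 FPKM, and the sums of the other 4 overlapped (0.673 to 0.864 and 0.226 to 0.957).

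Mitochondrial genes took 2 to 3 in every 100 reads, and the groups overlapped. The share of reads on the 37 genes was 2.81%, 2.06% and 2.60% in the Ctrl libraries 1, 2 and 3, against 2.66%, 2.63% and 3.06% in cKO 1, 2 and 3. Ctrl 2 was the lowest and cKO 3 the highest. The means were 2.49% ± 0.387 in Ctrl and 2.79% ± 0.241 in cKO (SD, n = 3 each), a difference of 0.295 percentage points (p = 0.4, two-sided exact permutation test, which cannot go below 0.1 with 3 libraries against 3). The difference was 0.0805 points without Ctrl 2 and 0.157 without cKO 3. Wilson 95% intervals of the shares were at most 0.0179 points wide, so counting error, which is all that they cover, was small beside the spread between libraries. In whole ovaries, another number of cells of a type that is rich in mitochondria and another amount of mitochondrial RNA per cell cannot be told apart. The haemoglobin share of reads, 0.129% to 1.69%, also differed between libraries, and with those reads left out the difference was 0.288 points (p = 0.4, exact permutation test).

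**Figure D1:**
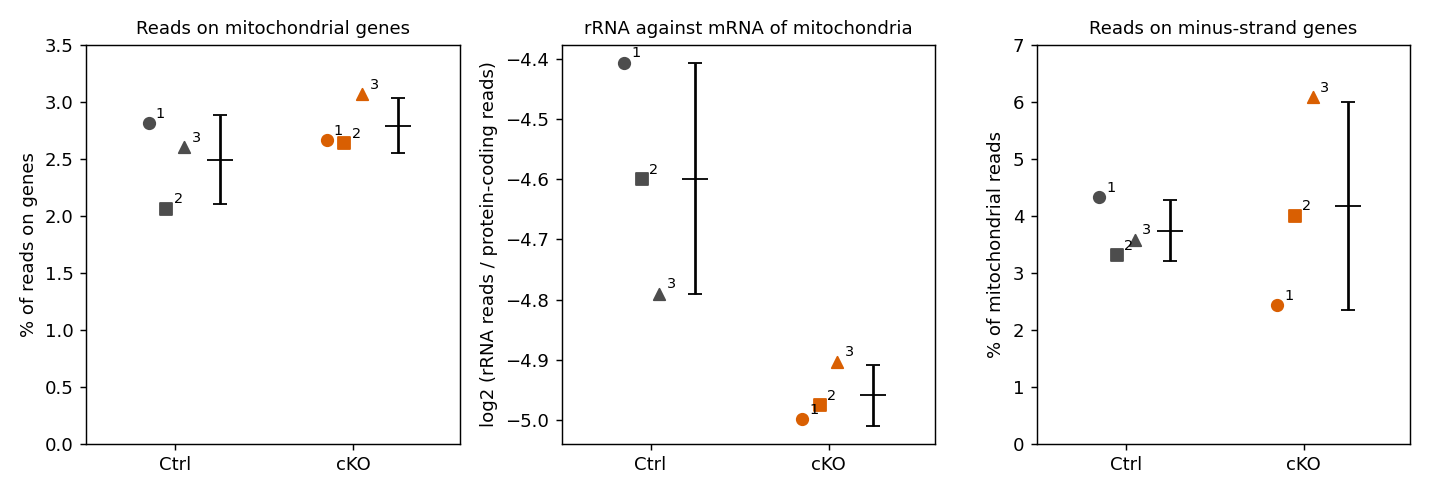
Values of each library for the share of reads on mitochondrial genes (left, % of reads on genes), the log2 ratio of mitochondrial rRNA reads to protein-coding reads (middle) and the share of mitochondrial reads on minus-strand genes (right, %), for 3 Ctrl (grey) and 3 cKO (orange) libraries with their numbers. Bars show mean and SD. The groups overlap on the left and right, and in the middle the 3 cKO libraries lie below the 3 Ctrl libraries.

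Of 2490063 mitochondrial reads over the 6 libraries, 2395630 fell on the protein-coding genes, 87787 on the rRNA genes and 6646 on the tRNA genes. The 13 protein-coding genes fell into a group of 7 with mean levels of 1268 to 7239 FPKM, which took 99.5% of protein-coding reads, and a group of 6 at 0.632 to 68.8 FPKM. Levels are compared between genes as FPKM, which is per length. It is not corrected for how well each RNA was caught by its poly(A) tail, nor for bases that other transcripts also hold. Of the 150-base stretches of *mt-Nd4* and *mt-Co1*, 59.2% and 23.6% are also in other transcripts. What this does to their place in the order was not tested.

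*mt-Co1*, the catalytic core of cytochrome c oxidase (complex IV), was the highest. It measured 7585, 5948 and 6729 FPKM in Ctrl 1, 2 and 3, against 8428, 6946 and 7800 in cKO 1, 2 and 3, and took 39.3% to 48.5% of mitochondrial reads. It was above *mt-Cytb* in 6 of 6 libraries. *mt-Cytb*, the cytochrome b of complex III, measured 4079, 2860 and 3742 FPKM in the Ctrl libraries, against 3687, 3789 and 3621 in the cKO libraries. *mt-Nd1*, a subunit of complex I (NADH dehydrogenase) in its membrane arm, measured 3597, 2178 and 3179 FPKM in the Ctrl libraries, against 3012, 3235 and 3863 in the cKO libraries. These neighbours in the order did not keep it throughout, as *mt-Cytb* was above *mt-Nd1* in 5 of 6 libraries.

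*mt-Nd6*, the complex I subunit encoded on the minus strand, was the most variable of the 7. Its level was 2296, 1193 and 1564 FPKM in Ctrl 1, 2 and 3, against 1169, 1901 and 3437 in cKO 1, 2 and 3, so that the lowest and the highest library were both cKO. *mt-Nd2* measured 1774, 969 and 1425 FPKM in the Ctrl libraries, against 1378, 1639 and 2309 in the cKO libraries. *mt-Nd5* measured 1532, 936 and 1230 FPKM in the Ctrl libraries, against 1206, 1403 and 1747 in the cKO libraries. *mt-Nd4* measured 1452, 891 and 1156 FPKM in the Ctrl libraries, against 1107, 1410 and 1591 in the cKO libraries. These 3 also code for membrane subunits of complex I, and *mt-Nd6* was above *mt-Nd2*, and *mt-Nd5* above *mt-Nd4*, in 5 of 6 libraries each, while *mt-Nd1* was above *mt-Nd6* and *mt-Nd2* above *mt-Nd5* in 6 of 6. Ctrl 2 was the lowest library for 6 of the 7 genes and cKO 3 the highest for 5.

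The 12S rRNA gene *mt-Rnr1* measured 615, 338 and 344 FPKM in the Ctrl libraries, against 352, 364 and 397 in the cKO libraries. The 16S rRNA gene *mt-Rnr2* measured 457, 296 and 340 FPKM in the Ctrl libraries, against 301, 292 and 386 in the cKO libraries. Both were highest in Ctrl 1. Both lay below the 7 high mRNAs in every library, and since the libraries were poly(A)-selected their values do not measure the rRNA content of the ovary. *mt-Rnr1* was above *mt-Rnr2* in 6 of 6 libraries, by a ratio of 1.01 to 1.35.

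**Figure D2:**
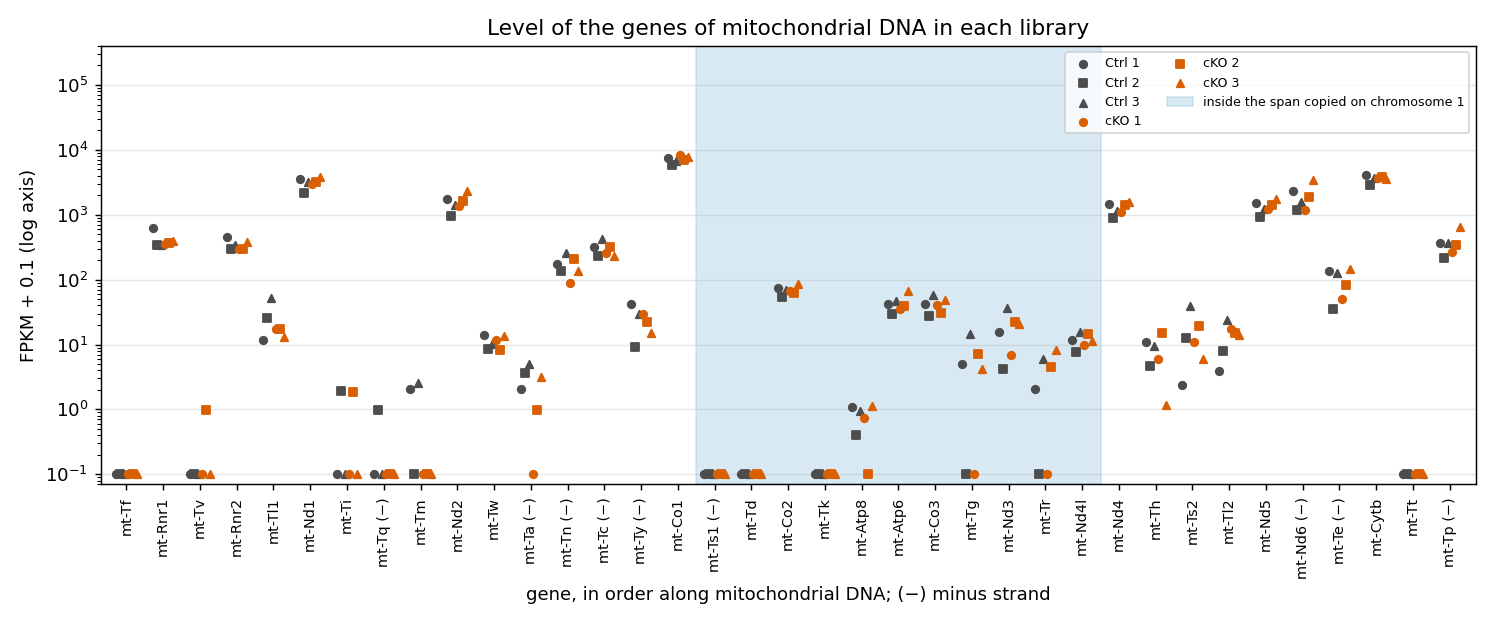
FPKM plus 0.1 (log axis) of the 37 genes in their order along mitochondrial DNA, with 1 point for each library (grey Ctrl, orange cKO, shape by library number); minus-strand genes carry a minus sign and points on the bottom line are at 0. The 6 protein-coding genes inside the blue span lie at means of 0.632 to 68.8 FPKM, against 1268 to 7239 for the other 7.

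The tRNA genes, of 59 to 75 bases, were shorter than the 150-base reads. Of the 22, 10 had reads in every library, 7 in some and 5 in none (*mt-Tf*, *mt-Ts1*, *mt-Td*, *mt-Tk* and *mt-Tt*). A count of 0 allows up to 3 reads, at most 2.11e-05% of the reads of a library, and whether the authors counted reads that cover more than 1 gene is not given. The 5 tRNA genes with the highest mean FPKM were all on the minus strand, and the minus strand took 6110 of the 6646 tRNA reads (91.9%, and 88.3% to 95.2% by library). *mt-Tp* measured 369, 219 and 363 FPKM in Ctrl 1, 2 and 3, against 270, 337 and 641 in cKO 1, 2 and 3. *mt-Tc* measured 316, 227 and 420 FPKM in the Ctrl libraries, against 255, 320 and 228 in the cKO libraries. *mt-Tn* measured 174, 137 and 256 FPKM in the Ctrl libraries, against 87.4, 210 and 135 in the cKO libraries. Of the other tRNAs read in every library, those for glutamate (*mt-Te*) and tyrosine (*mt-Ty*), on the minus strand, ranged from 34.9 to 146 and from 9.22 to 42.8 FPKM. On the plus strand, *mt-Tl1* ranged from 11.6 to 51.9, *mt-Ts2* from 2.26 to 39.8, *mt-Tl2* from 3.76 to 23.4, *mt-Tw* from 8.005 to 13.9 and *mt-Th* from 1.05 to 15.1 FPKM. *mt-Ta*, *mt-Tm*, *mt-Ti*, *mt-Tq* and *mt-Tv* had at most 4.98 FPKM in any library. The sources used here do not give a strand setting for the counting, so reads from the opposite strand of these genes cannot be told apart from their own.

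The protein-coding genes with low levels were those inside a span that has annotated copies in the nuclear genome. The table lists 7 unprocessed pseudogenes in a row on chromosome 1 (minus strand, 24611535 to 24616197), and each of them matched a mitochondrial gene: *Gm29216* the last part of *mt-Co1*, *Gm28661* *mt-Co2*, *Gm10925* *mt-Atp6*, *Gm28437* *mt-Co3*, *Gm28438* *mt-Nd3*, *Gm10222* *mt-Nd4l* and *Gm28439* the first part of *mt-Nd4*. Over 4140 aligned bases the transcripts differed at 2, an identity of 99.95%. Of the 492 bases of *Gm29216* 483 were aligned, and differences in the rest are not in that count. The copies followed the order of the genes from *mt-Co1* to *mt-Nd4*, with a small shift in position between *mt-Nd3* and *mt-Nd4l*. The substitutions were A1066T in *mt-Co1* against *Gm29216* and T3C in *mt-Nd3* against *Gm28438*, with positions counted from 1 at the first base of the mitochondrial gene and its base given first. The latter is at the last base of the start codon, ATT in *mt-Nd3* and ATC in the copy, and its effect was not tested. The first 60 bases of both are shown with the differing base in capitals (*mt-Nd3*, MT, 9459 to 9518, plus strand, and *Gm28438*, chromosome 1, 24613060 to 24613119, minus strand).
mt-Nd3: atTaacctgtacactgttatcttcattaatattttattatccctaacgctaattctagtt
Gm28438: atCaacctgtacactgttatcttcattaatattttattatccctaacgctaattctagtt

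Of all stretches of 150 bases in a gene, the length of a read, the share found letter for letter in the transcript of another gene was 99.4% for *mt-Co2*, 99.4% for *mt-Atp6*, 99.8% for *mt-Co3*, 97.0% for *mt-Nd3* and 98.0% for *mt-Nd4l*. It was 59.2% for *mt-Nd4*, 23.6% for *mt-Co1*, and 0 for *mt-Nd1*, *mt-Nd2*, *mt-Nd5*, *mt-Nd6*, *mt-Cytb* and both rRNA genes. *mt-Atp8* also lies inside the copied span, but no transcript is annotated over its copy. The 6 protein-coding genes that lie wholly inside had a median of 29.3 FPKM, while the 5 wholly outside had a median of 1927 and a range of 1342 to 3629. *mt-Co2*, a subunit of complex IV beside *mt-Co1*, measured 75.4, 54.0 and 68.1 FPKM in the Ctrl libraries, against 66.7, 62.5 and 86.0 in the cKO libraries. *mt-Co3*, the third core subunit of that complex, measured 41.8, 27.6 and 57.9 FPKM in the Ctrl libraries, against 40.4, 30.8 and 48.0 in the cKO libraries. *mt-Atp6* measured 42.2, 29.4 and 46.1 FPKM in the Ctrl libraries, against 34.8, 38.5 and 67.2 in the cKO libraries. *mt-Nd4l*, of complex I, ranged from 7.69 to 15.4 FPKM over the 6 libraries and *mt-Atp8* from 0 to 1.04. The level of a gene wholly inside the span, or partly inside as *mt-Co1* and *mt-Nd4* are, is thus a count of reads assigned to it. How the authors treated reads that match 2 places is not given.

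The split of reads between gene and copy was even for some pairs and differed between libraries for others. Reads on *mt-Co2* were 54.3% to 58.1% of those on it and *Gm28661* together, and those on *mt-Atp6* were 45.4% to 53.7%. *mt-Co3* took 47.1% to 65.3% of the reads on its pair and *mt-Nd4l* 41.3% to 69.9%. The shares were 99.8% to 99.9% for *mt-Co1* and 99.4% to 99.5% for *mt-Nd4*, which reach beyond the copy. Adding the reads counted on the copies moved no gene into the range of the other 7. *mt-Co2* and *Gm28661* together had 1102 to 1436 reads, against 148995 to 201629 for *mt-Co1* and its copy. *mt-Nd6*, which had the fewest reads of the 7, had 9380 to 25329. Any reads left uncounted because they match 2 places are not in these sums, so the sums cannot show why the levels are low.

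*mt-Nd3*, a small subunit of complex I, showed the widest split, in which 2 libraries lay far from the other 4. It took 69.6%, 15.1% and 84.1% of the reads of its pair in the Ctrl libraries, against 16.02%, 84.8% and 64.6% in the cKO libraries. In FPKM *mt-Nd3* measured 15.3, 4.08 and 36.5 in the Ctrl libraries, against 6.88, 21.9 and 20.6 in the cKO libraries. *Gm28438* measured 6.76, 23.1 and 6.97 in the Ctrl libraries, against 36.4, 3.97 and 11.4 in the cKO libraries. Ctrl 2 and cKO 1 were thus low for the gene and high for the copy, 1 library of each group. The tRNA genes on either side followed the same libraries. *mt-Tg* had 5 reads in Ctrl 1, none in Ctrl 2 and 17 in Ctrl 3, and none, 8 and 4 in the cKO libraries. *mt-Tr* had 2, 0 and 7 in the Ctrl libraries, against 0, 5 and 8 in the cKO libraries. Ctrl 2 and cKO 1 were also the lowest for the neighbouring *mt-Nd4l*, at 7.69 and 9.80 FPKM against 11.4 to 15.4 in the other 4 libraries. Its share of the reads of its pair was 43.5% and 41.3% in Ctrl 2 and cKO 1, against 51.6% to 69.9%, and that of *mt-Co3* was 48.7% and 47.1%, against 54.4% to 65.3%. For *mt-Co2* and *mt-Atp6* these were not the 2 lowest libraries. The cause was not tested.

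**Figure D3:**
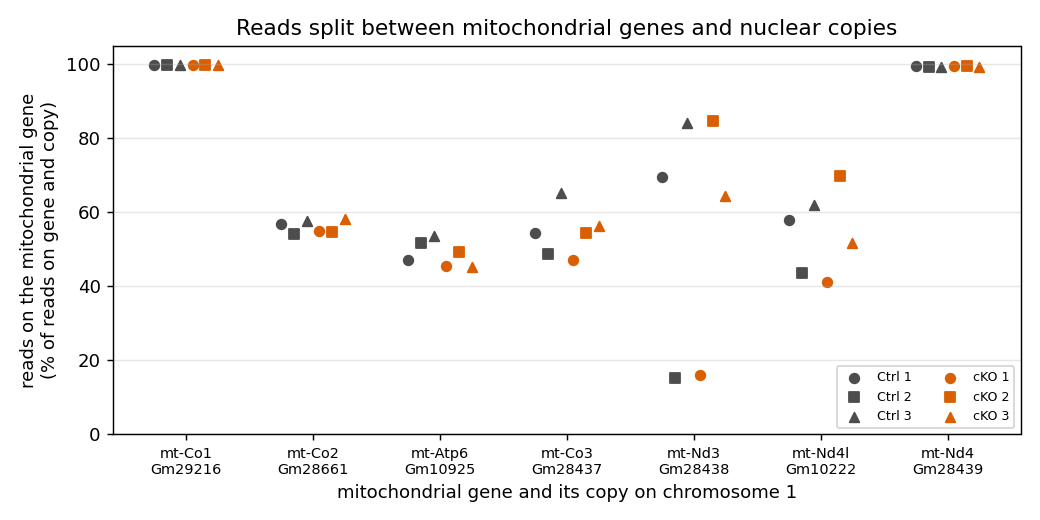
Reads on a mitochondrial gene as a percentage of the reads on it and on its chromosome 1 copy (vertical axis), for the 7 pairs in gene order, with 1 point for each library (grey Ctrl, orange cKO, shape by library number). For *mt-Nd3* and *Gm28438*, Ctrl 2 and cKO 1 lie at 15.1% and 16.02%, below the other 4 libraries at 64.6% to 84.8%.

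The comparison of cKO with Ctrl ovaries asks whether the loss of SRSF1 from germ cells went with another level of mitochondrial RNA. No mitochondrial gene had groups that did not overlap, against 8.68% of the 17180 genes tested. The test was limma on log2(FPKM + 1) for genes with a mean of at least 0.5 FPKM, which kept 30 of the 37, with 7 tRNA genes left out. At an unadjusted p below 0.05, the limit the study used, it called 4.43% of genes, 2.68% higher and 1.75% lower in cKO. It called 1 of the 30 mitochondrial genes. At a Benjamini-Hochberg adjusted p below 0.05 it called 0% of genes (0 of 17180, against 761 at the unadjusted limit), and 0 of the 30. *Srsf1* itself had a log2 fold change of −0.99 (SE 0.13, unadjusted p = 0.000158, adjusted p = 0.497, limma). The adjusted limit thus missed the deleted gene too. The adjusted p of the 30 genes was 0.978 or more in limma.

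The gene called was *mt-Tm*, the methionine tRNA (unadjusted p = 0.0446, adjusted p = 0.978, limma), which rested on 5 reads in all: 2, 0 and 3 in Ctrl 1, 2 and 3 and 0 in each cKO library. Its fitted log2 difference of −1.12 (SE 0.46) depends on the pseudocount and is no measure of a fold. *mt-Ta*, the alanine tRNA, had a log2 fold change of −1.14 (SE 0.52, unadjusted p = 0.0656, adjusted p = 0.978, limma) from 2, 4 and 6 reads in the Ctrl libraries, against 0, 1 and 3 in the cKO libraries. At this depth no difference in either tRNA could be measured with precision.

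The 7 high mRNAs all had log2 fold changes above 0, with a median of 0.24, against −0.01 over all genes tested, and none passed the unadjusted limit. They rest on the same 6 libraries, of which Ctrl 2 was the lowest for 6 of the 7 genes, so they are not independent of each other. The values ran from 0.07 (95% interval −0.44 to 0.58) for *mt-Cytb* to 0.36 (−0.35 to 1.07) for *mt-Nd2*. They were 0.20 (−0.35 to 0.74) for *mt-Co1*, 0.20 (−0.41 to 0.80) for *mt-Nd1*, 0.28 (−0.75 to 1.31) for *mt-Nd6*, 0.25 (−0.34 to 0.83) for *mt-Nd5* and 0.24 (−0.33 to 0.82) for *mt-Nd4*. The intervals hold both no difference and increases of 0.58 or more on the log2 scale, so these data do not separate the groups at that size. Leaving out Ctrl 2 brought the median to 0.06, leaving out cKO 3 to 0.11, leaving out cKO 1 to 0.37 and leaving out Ctrl 1 to 0.42. It was 0.19 without Ctrl 2 and cKO 1 together, a choice made after the values were seen. Without Ctrl 2 the log2 fold change was −0.079 for *mt-Cytb* and −0.013 for *mt-Nd1*, and without cKO 3 it was −0.12 for *mt-Nd6*.

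None of the other mRNAs passed either. The 6 low mRNAs had a median log2 fold change of 0.09, from −0.17 (*mt-Atp8*) to 0.21 (*mt-Atp6*), with 4 above 0 and none past the limit, and for *mt-Nd3* the 95% interval ran from −1.68 to 1.90. Of the 15 tRNA genes tested 4 were above 0 and 11 below, with a median of −0.10. The high tRNAs did not share a sign, with *mt-Tp* at 0.33 (SE 0.36), *mt-Tc* at −0.23 (SE 0.25) and *mt-Tn* at −0.43 (SE 0.36).

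**Figure D4:**
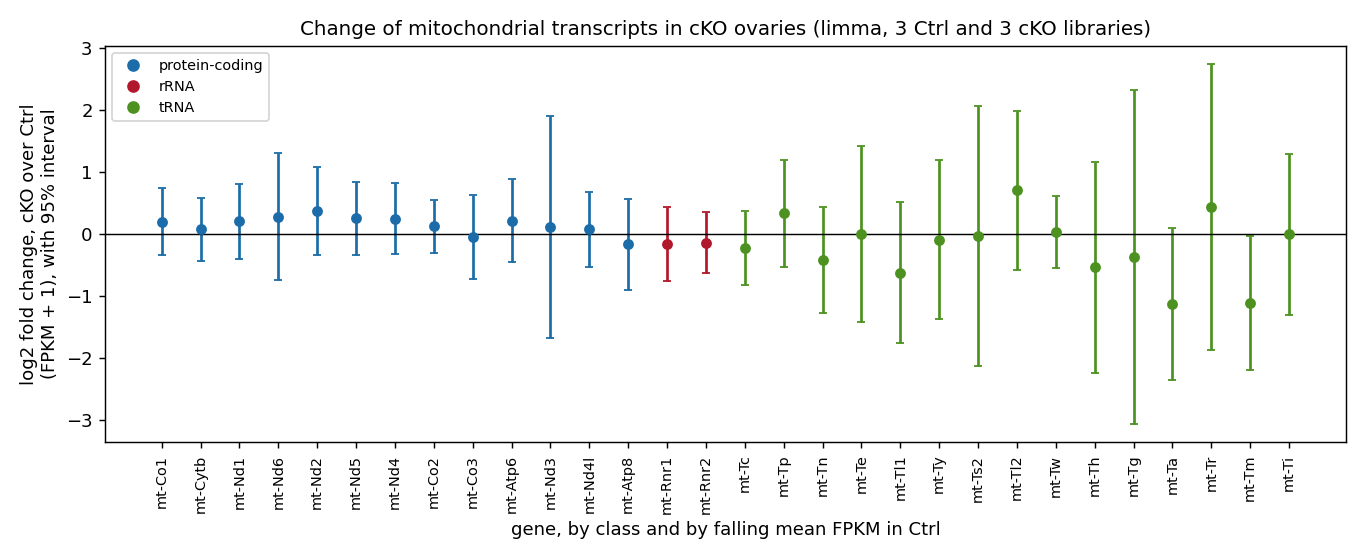
Log2 fold change of cKO over Ctrl on the log2(FPKM + 1) scale with its 95% interval from limma, for the 30 genes tested, by class (blue protein-coding, red rRNA, green tRNA) and then by falling Ctrl level. Except for *mt-Tm*, which rested on 5 reads, every interval holds 0, and the 7 high mRNAs on the left lie between 0.07 and 0.36.

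The ratio of rRNA to mRNA within mitochondria did separate the libraries. The log2 fold change was −0.16 (95% interval −0.76 to 0.43, unadjusted p = 0.538, adjusted p = 0.986, limma) for *mt-Rnr1* and −0.15 (−0.64 to 0.35, unadjusted p = 0.501, adjusted p = 0.985, limma) for *mt-Rnr2*, and neither passed the limit, while the 7 mRNAs lay above 0. The log2 ratio of rRNA reads to protein-coding reads was −4.41, −4.60 and −4.79 in Ctrl 1, 2 and 3, against −4.999, −4.98 and −4.90 in cKO 1, 2 and 3. The 3 cKO libraries lay below the 3 Ctrl libraries, and the nearest were Ctrl 3 and cKO 3. The means were −4.60 ± 0.192 and −4.96 ± 0.0501 (SD, n = 3 each), a difference of −0.36 (p = 0.1, two-sided exact permutation test, the smallest p that 3 against 3 allows). The rRNA share of mitochondrial reads was 3.97% ± 0.509 in Ctrl and 3.11% ± 0.104 in cKO (SD, n = 3 each). The difference in the log2 ratio was −0.26 without Ctrl 1, and without that library *mt-Rnr1* and *mt-Rnr2* themselves had log2 fold changes of 0.12 and 0.027. The ratio needs no nuclear library size. Since rRNA is caught here only through its poly(A) tail, the amount of rRNA and its catch cannot be told apart. In whole ovaries, another mix of cells cannot be told apart from these either, and its part was not tested. Germ cell markers summed to 87.9, 197 and 355 FPKM in the Ctrl libraries, against 413, 143 and 503 in the cKO libraries. *Myl7*, the 1 muscle and heart marker that also did not overlap between the groups, was at most 6.92 FPKM. The red blood cell marker *Hbb-y* did not overlap either, at 6.15 to 10.49 FPKM in Ctrl and 23.9 to 99.6 in cKO. The summed red blood cell markers overlapped. The part of *Myl7* and of *Hbb-y* in the ratio was not tested.

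The share of mitochondrial reads on minus-strand genes did not differ beyond the spread. The strand setting of the counting is not given, so these reads may include some from the opposite strand. The share is thus no measure of strand balance. Genes on the minus strand took 4.33%, 3.31% and 3.58% of mitochondrial reads in the Ctrl libraries, against 2.43%, 3.996% and 6.07% in the cKO libraries, most of them on *mt-Nd6*. The means were 3.74% ± 0.529 and 4.17% ± 1.83 (SD, n = 3 each; p = 0.8, two-sided exact permutation test), and the difference of 0.429 percentage points was −0.524 without cKO 3 and 1.30 without cKO 1. The FPKM ratio of *mt-Nd6* to *mt-Nd5*, its neighbour on the other strand with which it shares 14 bases, ran from 0.969 in cKO 1 to 1.97 in cKO 3. The cKO libraries thus held both extremes.

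The nuclear genes that build, read and maintain the mitochondrial genome and its products were then examined, from lists chosen with earlier results of these data known. Of the 222 genes found, 219 were tested and 6 passed the unadjusted limit, all 6 higher in cKO and none lower, which is 6 of 219 against 2.68% of all genes called higher. Their median log2 fold change was 0.01, that of all genes −0.01. The groups of 17 of the 219 did not overlap, against 8.68% of all genes, and adjusted p was 0.978 or more in limma. The count depended on single libraries and moved with that over all genes. Without Ctrl 2 none of the list passed and 2.12% of all genes did, and without cKO 2 there were 18 higher and 17 lower in the list, 15.98% of it, when 14.5% of all genes passed. There were 1 higher and 2 lower without Ctrl 1, 5 higher and 1 lower without Ctrl 3, 2 higher without cKO 1, and 1 higher without cKO 3, when 3.66%, 6.87%, 2.58% and 2.51% of all genes passed.

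Nuclear subunits of complexes I to V held 3 of the 6. Over all genes 2.68% were called higher in cKO, and no count below is read as a result about a complex. Of 75 tested, 3 passed, of which 2 were among the 71 of complexes I, III, IV and V. These complexes also hold subunits encoded by mitochondrial DNA. The median log2 fold change of the 75 was −0.01. For complex I, 1 of 36 passed: *Ndufs1*, its largest subunit, measured 13.5, 12.9 and 14.4 FPKM in Ctrl 1, 2 and 3, against 19.5, 14.6 and 19.9 in cKO 1, 2 and 3 (log2 fold change 0.37, SE 0.15, unadjusted p = 0.042, adjusted p = 0.978, limma). The highest of that list by level, *Ndufb11* and *Ndufa2*, had log2 fold changes of −0.06 (SE 0.13) and −0.24 (SE 0.23). For complex II, which has no subunit from mitochondrial DNA, 1 of 4 passed: *Sdhb*, its iron-sulphur subunit, measured 41.5, 41.1 and 47.6 FPKM in the Ctrl libraries, against 59.99, 48.4 and 69.6 in the cKO libraries (0.43, SE 0.16, unadjusted p = 0.0317, adjusted p = 0.978, limma). *Sdhd* and *Sdha* were at −0.07 (SE 0.15) and −0.09 (SE 0.15). None of the 9 nuclear subunits of complex III and none of the 11 of complex IV passed in limma, and *Uqcr10* (0.22, SE 0.15), *Uqcrh* (0.01, SE 0.13), *Cox6a1* (0.07, SE 0.16) and *Cox4i1* (0.03, SE 0.12) had the highest levels. For complex V, 1 of 15 passed: *Atp5g1*, which codes for the c subunit of the ATP synthase ring, measured 14.2, 10.95 and 10.4 FPKM in the Ctrl libraries, against 14.8, 16.5 and 17.8 in the cKO libraries (0.44, SE 0.15, unadjusted p = 0.0213, adjusted p = 0.978, limma). *Atp5a1* and *Atp5b*, of its catalytic head, were at −0.06 (SE 0.12) and −0.06 (SE 0.14).

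The machinery that expresses the mitochondrial genome held the other 3. Of 130 genes tested in 4 lists, 3 passed, all of them among the 77 proteins of the mitochondrial ribosome. Beside the 2.68% of all genes called higher, this is not read as a result about the ribosome. *Mrps16*, of the small subunit, measured 11.3, 11.47 and 11.1 FPKM in the Ctrl libraries, against 13.6, 13.97 and 14.1 in the cKO libraries (log2 fold change 0.27, SE 0.10, unadjusted p = 0.0309, adjusted p = 0.978, limma). *Mrpl17* measured 8.22, 7.73 and 9.30 FPKM in the Ctrl libraries, against 10.1, 10.6 and 13.2 in the cKO libraries (0.38, SE 0.14, unadjusted p = 0.0314, adjusted p = 0.978, limma), and *Mrpl45* measured 17.6, 16.1 and 19.2 in the Ctrl libraries, against 22.4, 20.6 and 22.2 in the cKO libraries (0.29, SE 0.11, unadjusted p = 0.0399, adjusted p = 0.978, limma). These 2 belong to the large subunit, and the median of the 77 was 0.00. In limma none passed among 15 genes of transcription and replication of mitochondrial DNA, where *Tfam*, which packs the DNA and starts its transcription, was at 0.07 (SE 0.13) and the helicase *Twnk* at 0.0012 (SE 0.23).

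None of the 21 genes tested for processing and stability of mitochondrial RNA passed in limma. *Hsd17b10*, a subunit of mitochondrial RNase P, was at −0.08 (SE 0.24), and *Grsf1*, which binds mitochondrial RNA, at −0.0030 (SE 0.14). None of 17 aminoacyl-tRNA synthetases passed in limma, and *Lars2* measured 18.0, 17.1 and 16.8 FPKM in the Ctrl libraries, against 49.1, 18.9 and 16.5 in the cKO libraries, so that 1 library, cKO 1, stood far above the other 5 (0.50, SE 0.38). *Iars2* was at 0.04 (SE 0.11). Of 9 genes used as measures of mitochondrial mass 8 lay above 0, with a median of 0.097, and 6 or 7 did with library sizes from nuclear genes, quantile normalization or voom. The count was also 6 without Ctrl 3, without cKO 1 or without cKO 3. Of all 17180 genes tested 8222 lay above 0 and 8958 below. *Hspd1*, a matrix chaperone, was at 0.10 (SE 0.16) and the outer membrane channel *Vdac1* at 0.06 (SE 0.14), and none passed in limma. Of 5 regulators of mitochondrial biogenesis all lay below 0 with a median of −0.18 and none passed in limma, among them *Gabpa* at −0.0037 (SE 0.11), which was at 0.0054 with median-ratio scaling, and *Pprc1* at −0.18 (SE 0.12). The number of regulators below 0 was 4 without Ctrl 1, without Ctrl 3 or without cKO 2, and 3 without cKO 3.

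**Figure D5:**
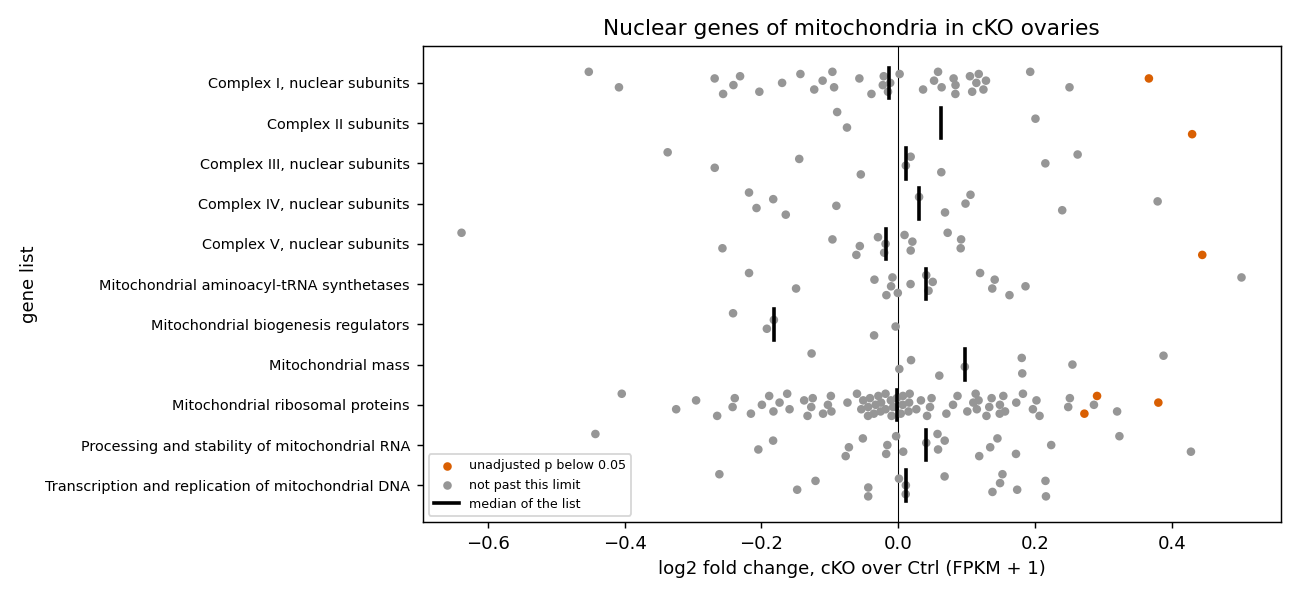
Log2 fold change of cKO over Ctrl on the log2(FPKM + 1) scale (horizontal axis) for the genes tested in each of the nuclear lists (vertical axis), with the median of a list as a black bar. The 6 genes past the unadjusted limit, in orange, all lie above 0, and the medians lie between −0.18 and 0.10.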

How the data were processed

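The authors sequenced poly(A)-selected RNA as 150-base read pairs, aligned to the mouse genome (mm10) with HISAT2 2.0.5, summed them over genes in featureCounts and deposited FPKM values, made from those sums and gene length. The annotation release, strand setting and treatment of reads that match several places were not stated. Members and gene lists were chosen with earlier results of these data known. Libraries were grouped by the labels. FPKM times gene length gave whole reads in 100% of values, within 0.05 of a read. limma 3.58.1 (R 4.3.3) was run over all genes, with FPKM as log2(FPKM + 1), a minimum mean of 0.5 FPKM, an intensity trend, two-sided p-values and Benjamini-Hochberg adjustment over all genes tested. The script was tested on simulated data. limma on log values was used in place of the study's count test because the deposited values are FPKM, and voom on the recovered reads was an alternative. Single values were compared by exact permutation over libraries. Intervals of shares are Wilson 95% intervals. The text names every mitochondrial gene, *Srsf1* and, of each nuclear list, the genes past the unadjusted limit (at most 5) or, with fewer than 2 of them, also the 2 with the highest mean FPKM. Sequences were read from GENCODE M21 transcripts (GRCm38), of which 141730 were searched. Alternatives covered the pseudocount, the minimum, scaling, limma voom on recovered reads, the trend, the replicate block, each library left out and 1 added after the values were seen.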

Additional observations from a re-analysis of the deposited data

How the results depend on the processing

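The count of mitochondrial genes past the unadjusted limit, 1 in limma, was 0 with a pseudocount of 0.1, a minimum of 1 FPKM or voom on the recovered reads, 2 with quantile normalization (*mt-Nd4* and *mt-Tm*), 2 without Ctrl 2 and cKO 1 together (*mt-Ty* and *mt-Tm*), and 0 to 2 with 1 library left out. No setting gave a mitochondrial gene an adjusted p below 0.05. Library numbers showed no sign of pairing the samples (correlations of deviations −0.39, −0.03 and 0.12, against −0.34 to 0.35 for unlike numbers). With 3 libraries in each group these values cannot exclude a pairing. With the replicate block 2 mitochondrial genes (*mt-Ta* and *mt-Tm*) and 2 nuclear list genes passed. Exact sign-flip permutation tests gave p = 0.5 for mitochondrial share, p = 0.25 for the rRNA ratio and p = 0.75 for minus-strand share. These tests cannot go below 0.25, and the block leaves the differences of means unchanged by arithmetic. The nuclear count, 6, was 0 without Ctrl 2 and cKO 1 together and 0 to 35 with 1 library left out, when 1.42% and 2.12% to 14.5% of all genes passed. The difference in mitochondrial share stayed above 0 (0.0805 to 0.456) and that in the log2 rRNA ratio below 0 (−0.46 to −0.26) with any library left out, while the minus-strand share ran from −0.524 to 1.30.

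Some log2 fold changes changed sign, among them that of *mt-Nd6*, which was 0.28 with all libraries. With 1 library left out, the range was −0.079 to 0.18 for *mt-Cytb*, −0.013 to 0.35 for *mt-Nd1*, −0.12 to 0.65 for *mt-Nd6*, −0.31 to 0.12 for *mt-Rnr1* and −0.28 to 0.027 for *mt-Rnr2*. It was −0.16 to 0.021 for *Ndufb11*, −0.21 to 0.017 for *Sdhd*, −0.23 to 0.012 for *Sdha*, −0.0499 to 0.10 for *Uqcrh*, −0.048 to 0.15 for *Cox6a1*, −0.024 to 0.084 for *Cox4i1*, −0.15 to 0.0022 for *Atp5b*, −0.21 to 0.16 for *Twnk* and −0.0092 to 0.11 for *Tfam*. It was −0.34 to 0.10 for *Hsd17b10*, −0.12 to 0.077 for *Grsf1*, −0.0036 to 0.088 for *Iars2*, −0.035 to 0.18 for *Hspd1*, −0.025 to 0.13 for *Vdac1* and −0.055 to 0.033 for *Gabpa*. Without Ctrl 2 and cKO 1 together, *mt-Cytb* was at −0.077, *Uqcrh* at −0.038, *Atp5b* at 0.015, *Twnk* at −0.11 and *Grsf1* at 0.0068. With library sizes from nuclear genes *Uqcrh* was at −0.0054 and *Twnk* at −0.015, with voom they were at −0.0092 and −0.022, and with quantile normalization *Twnk* was at −0.017. With median-ratio scaling *Grsf1* was at 0.0064 and *Gabpa* at 0.0054. The cause of these changes was not tested. Of the 22 tRNA genes 5 were at 0 in every library, for a cause that was not tested, and the settings above do not settle how reads were shared with the nuclear copies.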
